A study of Homo sapiens with 6 samples.

Results

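In H1299 cells, a cultured human line of non-small cell lung cancer, chromosome 22 was chosen by measured values: it had the largest metformin to control ratio of covered length of any chromosome, for H3K4me3 and also for H3K27me3. All intervals of 4 peak lists (hg19) that lie on chromosome 22 were taken, with lines that share an interval joined. This gave 5020 of the 275570 intervals in all. They are 1183 H3K4me3 intervals from metformin-treated cells and 1035 from control cells, with 1431 H3K27me3 intervals from metformin-treated cells and 1371 from control cells. The treated cells received 5 mM metformin for a time that the labels do not state, and control cells were grown without it. Chromatin of cross-linked cells was cut with micrococcal nuclease and precipitated with an antibody to 1 of the marks, per the labels' protocols. Of the 6 samples in the series, the 2 inputs (chromatin without precipitation) were not analysed here. There was 1 library for each mark and condition, so no value below has a replicate error and the conditions are compared without a test. Since the ratios chose the chromosome, everything derived from the same lists is a description of them.

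Trimethylation of histone H3 lysine 4 (H3K4me3) is written by SET1 and MLL family enzymes and marks promoters that are active or poised, most of all those in CpG islands. Trimethylation of lysine 27 (H3K27me3) is written by EZH2 within Polycomb repressive complex 2 and spreads over silenced developmental genes and gene-poor stretches between active regions. Sites with both marks are called bivalent and are known from stem cells and also from tumour cells. Chromosome 22 is a small acrocentric chromosome with a gene-rich, GC-rich long arm. Metformin is a biguanide that lowers mitochondrial respiration and activates AMPK. Each list gives 1 value per line, read here as the −log10 q of the peak caller, which is the authors' own value. It serves to describe, rank or group intervals and sites, and not to compare the conditions. Read depth is unknown, since the lists carry no counts of reads, and deeper sequencing alone can lengthen a list.

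H3K4me3 covered 1092 kb of chromosome 22 in metformin-treated cells and 888 kb in control cells, a ratio of 1.23. H3K27me3 covered 1655 kb in metformin-treated cells and 1358 kb in control cells, a ratio of 1.22. Over the 22 other chromosomes (1 to 21 and X) the H3K4me3 ratio ran from 1.06 to 1.18 with a median of 1.12, and the H3K27me3 ratio from 1.01 to 1.17 with a median of 1.09. The nearest chromosome was 16 for H3K4me3 and 17 for H3K27me3. Chromosome 22 held 1.80% of all control H3K4me3 length but 3.54% of the net gain, and 1.59% of all control H3K27me3 length but 3.83% of that gain. Without it the ratio over the other sequence was 1.115 (H3K4me3) and 1.089 (H3K27me3), against 1.117 and 1.091 with it.

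As deposited, the H3K4me3 lists differed more in number than in mean width, and the H3K27me3 lists more in mean width than in number. For H3K4me3 the number of intervals was 1.14 times that of control, the highest such ratio of 23 chromosomes, while the mean width was 1.08 times (923 bp in metformin-treated cells, 858 bp in control). For H3K27me3 the number was only 1.04 times that of control, while the mean width was 1.17 times (1157 bp in metformin-treated cells, 990 bp in control), the highest width ratio of the 23. The shortest H3K27me3 interval was 166 bp in metformin-treated cells and 159 bp in control. The part of a difference in calling between the lists was not tested. With intervals within 1 kb merged, H3K4me3 had 529 metformin and 497 control intervals at a length ratio of 1.23, so most of its gain too was then in width. The merged H3K27me3 length ratio was 1.2, and both merged ratios were the highest of the 23.

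**Figure D1:**
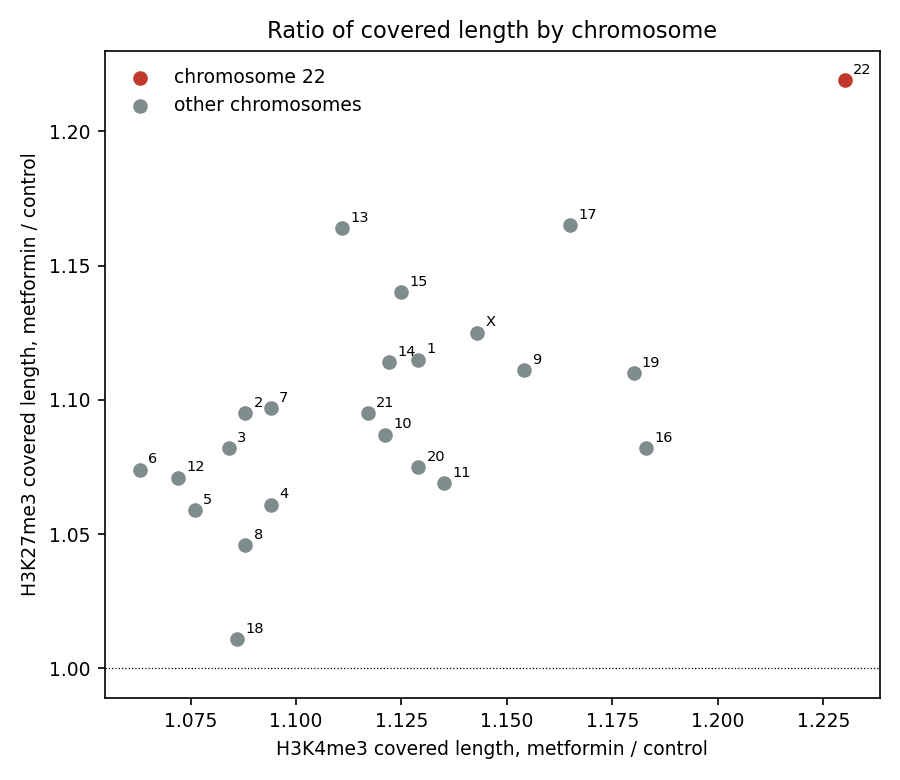
Each point is 1 chromosome, with covered length in metformin over control for H3K4me3 on the x axis and for H3K27me3 on the y axis, and the dotted line marks an H3K27me3 ratio of 1. Chromosome 22, in red, sits alone at the upper right at 1.23 and 1.22, while no other chromosome passes 1.18 on the x axis or 1.17 on the y axis.

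Other measures of the lists stood beside these ratios. The H3K4me3 values of chromosome 22 were low: the length-weighted mean was 21.6 in the metformin list and 18.2 in the control list, against 30.3 and 25.5 over all chromosomes, and it ranked 21 of 23 in both, above chromosomes 13 and X. Across the 23 chromosomes the Spearman correlation between the control mean value and the H3K4me3 length ratio was −0.48, where all points share the same libraries. Chromosome 22 also had the highest median GC content of coding-gene promoters (67% over 308 promoters, against 62.7% over 15843, RefSeq on GRCh38.p14). The Spearman correlation of promoter GC with the length ratio was 0.39 for H3K4me3 and 0.22 for H3K27me3 over 22 chromosomes with promoter sequences, and 0.30 and 0.11 without chromosome 22. The part of depth, value and base composition in the ratios was not tested.

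H3K4me3 coverage was larger in metformin-treated cells along nearly the whole chromosome. Between 16 and 52 Mb, H3K4me3 intervals lay in 33 of 36 bins of 1 Mb, and 31 of these bins had more H3K4me3 after metformin. In each of the 30 bins with at least 5 kb in both lists the metformin value was the larger, at ratios from 1.03 to 1.42 with a median of 1.25. Over all chromosomes 78.9% of such bins were higher, with a median ratio of 1.09. Bins dense in the metformin list were dense in the control list (Spearman rho 0.99 over the 36 bins, which share their libraries).

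The 5 bins that gained most H3K4me3 were spread over the long arm. The bin from 50 to 51 Mb, close to the chromosome end, held 61.9 kb in metformin-treated cells and 43.7 kb in control, 8.94% of the net gain. From 19 to 20 Mb the values were 67.0 kb in metformin-treated cells and 50.7 kb in control. From 38 to 39 Mb, the densest bin after metformin, they were 74.2 kb in metformin-treated cells and 58.7 kb in control. Each of these 3 bins made up less than 10% of the net gain. The bins from 20 Mb (53.3 kb in metformin-treated cells, 40.7 kb in control) and from 42 Mb (51.7 kb in metformin-treated cells, 39.7 kb in control) followed.

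Among bins with at least 5 kb in both lists, the lowest H3K4me3 ratio lay in a bin rich in H3K27me3. From 22 to 23 Mb H3K4me3 covered 38.0 kb in metformin-treated cells and 37.0 kb in control, a ratio of 1.03, although H3K27me3 covered 230 kb in metformin-treated cells and 194 kb in control there. Only the bins from 16 Mb (0.236 kb in metformin-treated cells, 0.25 kb in control) and from 48 Mb (2.18 kb in metformin-treated cells, 2.21 kb in control) had less H3K4me3 after metformin, by a few bases. The H3K4me3 ratio varied among other bins dense in H3K27me3, at 1.36 from 23 Mb, 1.15 from 26 Mb and 1.36 from 37 Mb. The bin from 27 Mb held 5.33 kb of H3K4me3 in metformin-treated cells and 4.8 kb in control, below the 5 kb limit. In the 5 bins densest in control H3K27me3 (from 22, 23, 26, 27 and 37 Mb), H3K4me3 covered 94.6 kb in metformin-treated cells and 82.3 kb in control. This was 1.15 times as much. In the other bins it covered 997 kb in metformin-treated cells and 806 kb in control, 1.24 times as much. Of the 5 bins, the one from 22 Mb held the most H3K4me3 and weighs most in their ratio. The next lowest H3K4me3 ratios lay in bins with far less H3K27me3, at 1.04 from 28 Mb, 1.10 from 29 Mb and 1.10 from 41 Mb. Control H3K27me3 covered 14.9, 2.76 and 1.38 kb there, so a lower ratio was not particular to bins dense in H3K27me3.

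H3K27me3 was far more concentrated than H3K4me3. Its 5 densest control bins, from 22, 23, 26, 27 and 37 Mb, held 61.4% of its control length, against 30.2% for the 5 densest bins of H3K4me3 (from 19, 38, 39, 41 and 50 Mb). In these 5 H3K27me3 bins it covered 984 kb in metformin-treated cells and 834 kb in control, 1.18 times as much and 50.6% of the net gain. In the remaining bins it covered 671 kb in metformin-treated cells and 524 kb in control, 1.28 times as much. The 5 bins were picked by their control length, which is also the denominator of the ratio. That choice by itself can lower their ratio, so the difference is not read further.

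The bin from 37 to 38 Mb gained the most H3K27me3, with 170 kb in metformin-treated cells and 124 kb in control (15.4% of the net gain). The bins from 22 Mb (230 kb in metformin-treated cells, 194 kb in control) and 23 Mb (196 kb in metformin-treated cells, 162 kb in control) followed. The bin from 19 to 20 Mb held 49.4 kb in metformin-treated cells and 24.7 kb in control, 2 times as much, in 54 metformin and 34 control intervals. It was also the bin with the second largest H3K4me3 gain, so both marks covered more of the same megabase, as in 27 bins in all. The bin from 26 Mb held 229 kb in metformin-treated cells and 205 kb in control.

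H3K27me3 was lower after metformin in 6 bins, and higher in 27. Of the 24 bins with at least 5 kb in both lists 21 were higher, where over all chromosomes 69.5% were, and the ratios ran from 0.78 to 2.03 with a median of 1.22 (1.10 over all chromosomes). The largest losses lay from 45 Mb (20.4 kb in metformin-treated cells, 26.0 kb in control), from 18 Mb (10.9 kb in metformin-treated cells, 12.8 kb in control) and from 50 Mb (13.4 kb in metformin-treated cells, 15.3 kb in control). Each of these 3 bins had more H3K4me3 after metformin. Both marks were higher in 27 bins, H3K4me3 alone was higher while H3K27me3 was lower in 4, and both were lower in 1. Across the 23 bins with at least 5 kb of both marks in both lists, the ratios of the marks were not aligned (Spearman rho −0.10, with the bins sharing their libraries).

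**Figure D2:**
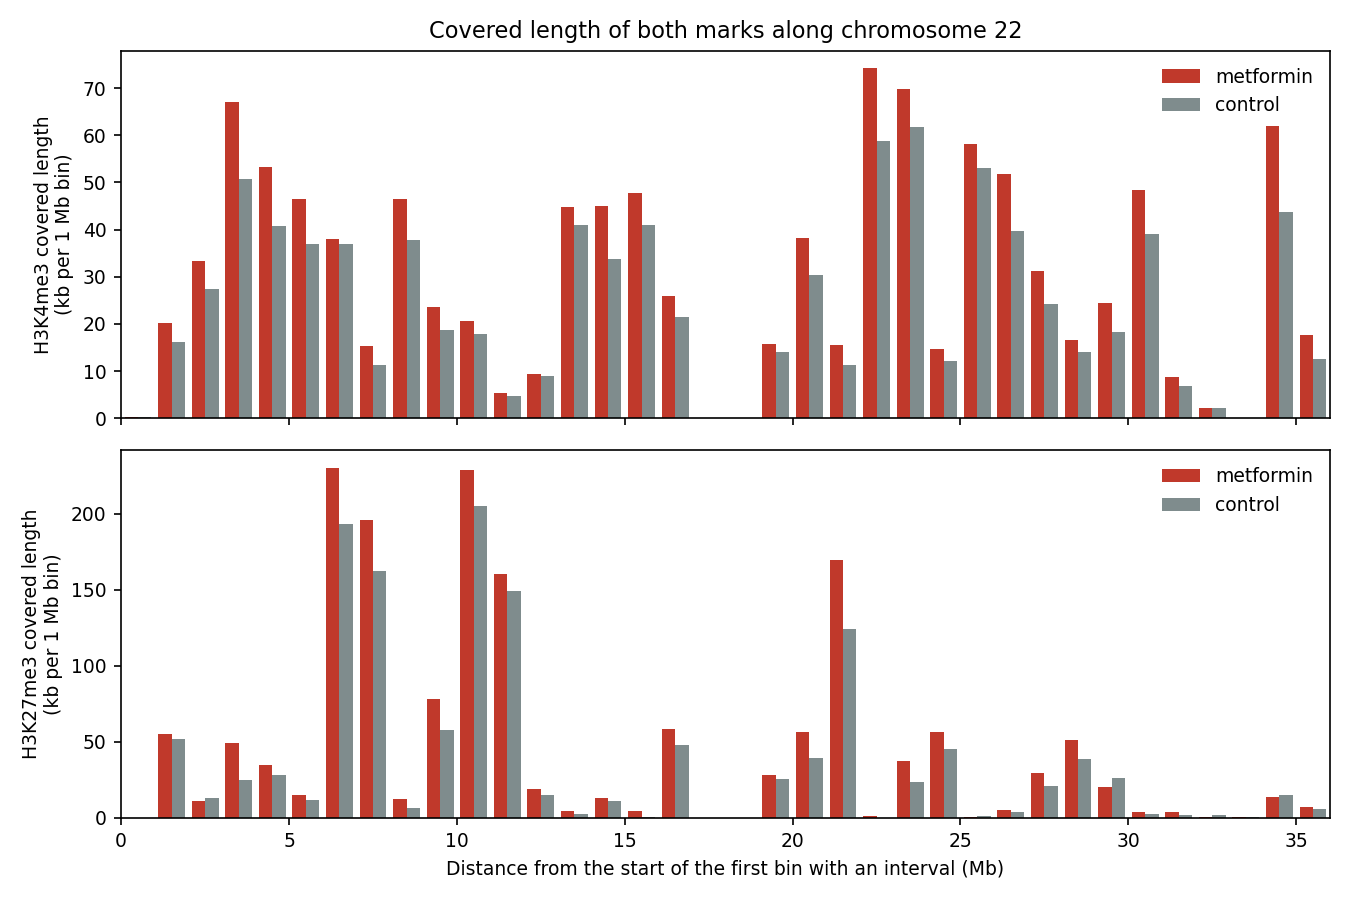
Bars give the covered length in kb per 1 Mb bin for metformin (red) and control (grey), with H3K4me3 above and H3K27me3 below, against the distance in Mb from 16 Mb, the start of the first bin with an interval. The red bars of H3K4me3 exceed the grey ones in 31 bins at many places, while H3K27me3 is held mainly in the bins from 22, 23, 26, 27 and 37 Mb.

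Joining intervals of both conditions that overlap by at least 1 bp gave 1296 H3K4me3 sites, each of them new (metformin alone), lost (control alone), widened or narrowed by its covered length. There were 426 new, 468 widened, 224 narrowed and 178 lost H3K4me3 sites. New sites added 139 kb and widened sites 162 kb, while narrowed sites changed the covered length by −47.9 kb and lost sites by −49.3 kb. New minus lost sites thus made 44.0% of the net gain of 204 kb, and sites held in both conditions made 56.0%. With intervals within 1 kb merged, new minus lost sites made 12.7%. Over all chromosomes the unmerged parts were 36.7% and 63.3%. New sites outnumbered lost ones 2.39 times on chromosome 22 and 1.53 times over all chromosomes.

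The new H3K4me3 sites were small and mostly lay near older ones, as they did over all chromosomes. Of the metformin intervals, 426 of 1183 had no control overlap (36.0%, exact Clopper-Pearson 95% interval 33.3 to 38.8, counting error only), where 32.7% of those over all chromosomes had none. Of the control intervals, 178 of 1035 had no metformin overlap (17.2%, 14.9 to 19.6), where 22.7% over all chromosomes had none, the lowest share of the 23 chromosomes. The metformin-only intervals had a median width of 286 bp, against 921 bp for metformin intervals with a partner, and a median value of 3.17 against 12.7. Their median distance to the nearest control interval was 702 bp, and 61.5% of them lay within 1 kb. Over all chromosomes the metformin-only intervals had a median width of 263 bp, a median value of 3.17 and a median distance of 677 bp, with 61.9% within 1 kb. None of the 147 metformin or 108 control intervals of 2 kb or more lacked a partner, where 1 of 8772 and 0 of 7403 over all chromosomes did.

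Among H3K4me3 sites found in both lists, 468 of 692 were longer in metformin-treated cells (67.6%, 64.0 to 71.1, counting error only), where 61.9% over all chromosomes were. Covered length chose the chromosome and the sites share 1 pair of libraries, so no excess is read from these shares. The ratio of lengths differed by value. At sites with a mean value of 20 or more, H3K4me3 covered 486 kb in metformin-treated cells and 454 kb in control (1.07 times, against 1.04 over all chromosomes). From 5 to 20 it covered 401 kb in metformin-treated cells and 331 kb in control (1.21 times, against 1.17), and under 5 it covered 66.5 kb in metformin-treated cells and 53.2 kb in control (1.25 times, against 1.12). The ratio was thus lowest at the sites of highest value, on chromosome 22 and over all chromosomes. The share of sites longer in metformin-treated cells was 61.8% at 20 or more, 73.0% from 5 to 20 and 62.8% under 5.

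H3K27me3 gave 1975 sites, of which 736 were new, 361 widened, 244 narrowed and 634 lost. These kinds were 37.3%, 18.3%, 12.35% and 32.1% of the sites. Over all chromosomes they were 37.0%, 14.9%, 12.6% and 35.5%. New sites added 474 kb and lost sites changed the covered length by −366 kb, so turnover was large in both directions and their difference made 36.4% of the net gain of 298 kb. Widened sites added 369 kb while narrowed ones changed it by −179.8 kb, which made the other 63.6%. Over all chromosomes these 2 parts of the net gain were 40.1% and 59.9%. Of the metformin intervals 736 of 1431 had no control overlap (51.4%, 48.8 to 54.1), where 53.7% over all chromosomes had none. Of the control intervals 634 of 1371 had no metformin overlap (46.2%, 43.6 to 48.9), where 51.7% over all chromosomes had none. These H3K27me3 intervals had values close to the calling limit, since 99.8% of metformin and 99.6% of control values were under 3.

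Of the 605 H3K27me3 sites found in both lists, 361 were longer in metformin-treated cells (59.7%, 55.6 to 63.6, counting error only), where 54.2% over all chromosomes were. As for H3K4me3, no excess is read from these shares. Where 1 control interval matched 1 metformin interval (450 sites), the median width ratio was 1.22, against 1.08 over all chromosomes. At 81 of the 605 sites the metformin list held fewer intervals than the control list, which is how pieces joined into longer regions appear. These added 126 kb of the net gain of 298 kb. At 55 of the 605 sites the metformin list held more intervals, and their net change was −18.9 kb. Over all chromosomes 4045 of 34234 matched sites held fewer metformin intervals and added 5380 kb, with a net gain of 7769 kb. More metformin intervals were held at 2938 of the 34234, with a net change of −3041 kb. Both kinds thus made up similar shares of the matched sites on chromosome 22 and over all chromosomes.

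**Figure D3:**
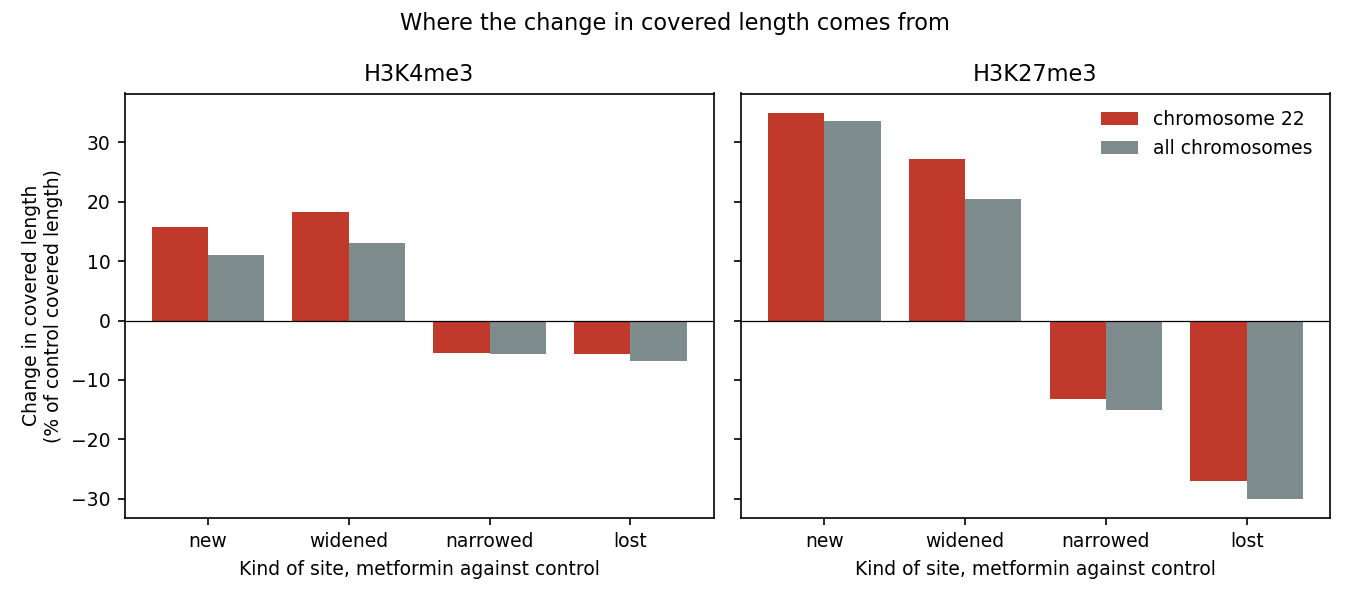
Bars give the change in covered length, metformin minus control, as a percentage of the control covered length, by kind of site, for chromosome 22 (red) and all chromosomes (grey). On chromosome 22 new H3K4me3 sites added 15.7% and widened ones 18.3%, against 11.1% and 13.0% over all chromosomes, and the change from lost H3K27me3 sites was −26.96%.

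The gain lay mostly in long intervals for both marks, as over all chromosomes, but the class of 2 to 4 kb made less of it here for both. The class of 2 to 4 kb made 38.5% of the net H3K4me3 gain, against 53.5% over all chromosomes. The class of 4 kb or more made 23.1%, against 32.7%. H3K4me3 intervals of 2 to 4 kb covered 339 kb in metformin-treated cells and 260 kb in control, and intervals under 500 bp covered 165 kb in metformin-treated cells and 146 kb in control. H3K27me3 intervals of 4 kb or more covered 319 kb in metformin-treated cells and 149 kb in control. They made 56.9% of the net gain, against 51.1% over all chromosomes. H3K27me3 intervals of 2 to 4 kb made 18.6%, against 29.1%. H3K27me3 intervals under 1 kb covered less after metformin, with 147 kb against 152 kb under 500 bp and 301 kb against 314 kb from 500 bp to 1 kb.

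Broad H3K4me3 domains of 4 kb or more numbered 21 in metformin-treated cells and 11 in control cells (1.91 times, against 1.29 over all chromosomes). They were 1.77% of the metformin intervals, where 2.98% over all chromosomes were, and 1.06% of the control intervals, where 2.44% over all chromosomes were. Broad domains were thus scarce here in both conditions, and the counts are small. With a limit of 2 kb the counts were 147 in metformin-treated cells and 108 in control (1.36 times). With intervals within 1 kb merged they were 132 and 89 (1.48 times). Of the 21 metformin domains 9 overlapped a control domain of 4 kb or more (42.9%, against 53.0% over all chromosomes). The other 12 all had shorter control intervals under them, which covered a median of 82.6% of their length, in 2 or more pieces for 11 of the 12. Over all chromosomes 0 of 750 such domains lacked a control interval, the median covered was 86.1%, and 652 of 750 had 2 or more pieces.

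The longest H3K4me3 domain after metformin was chr22:46468125-46474823, 6699 bp long, over a control domain of 5874 bp that begins at the same base. The next, chr22:19156364-19162466, was 6103 bp long after metformin and had 2 control intervals, of at most 4271 bp. The third, chr22:39709940-39715587, was 5648 bp long after metformin and 6223 bp in control. The longest control domain was chr22:29661836-29668337, 6502 bp long, where the longer of 2 metformin intervals had 5486 bp. Long domains therefore differed in both directions.

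H3K27me3 regions of 4 kb or more numbered 51 in metformin-treated cells and 24 in control cells (2.13 times, against 1.24 over all chromosomes, and the highest ratio of the 23). They were 3.56% of the metformin intervals, where 3.32% over all chromosomes were, and 1.75% of the control intervals, where 2.69% over all chromosomes were. Of the 51 metformin regions 16 overlapped a control region of 4 kb or more (31.4%, against 41.8% over all chromosomes). The control list covered a median of 46.9% of the other 35, in 2 or more pieces for 24 of them. Over all chromosomes the median covered was 51.2%, and 1370 of 1661 had 2 or more pieces. One of these 35, chr22:25620825-25625006 (4182 bp, picked after its values were seen), had no control interval and lay 1874 bp from the nearest one. With a limit of 2 kb the counts were 212 in metformin-treated cells and 160 in control (1.32 times), and with intervals within 1 kb merged they were 106 and 80 (1.32 times).

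**Figure D4:**
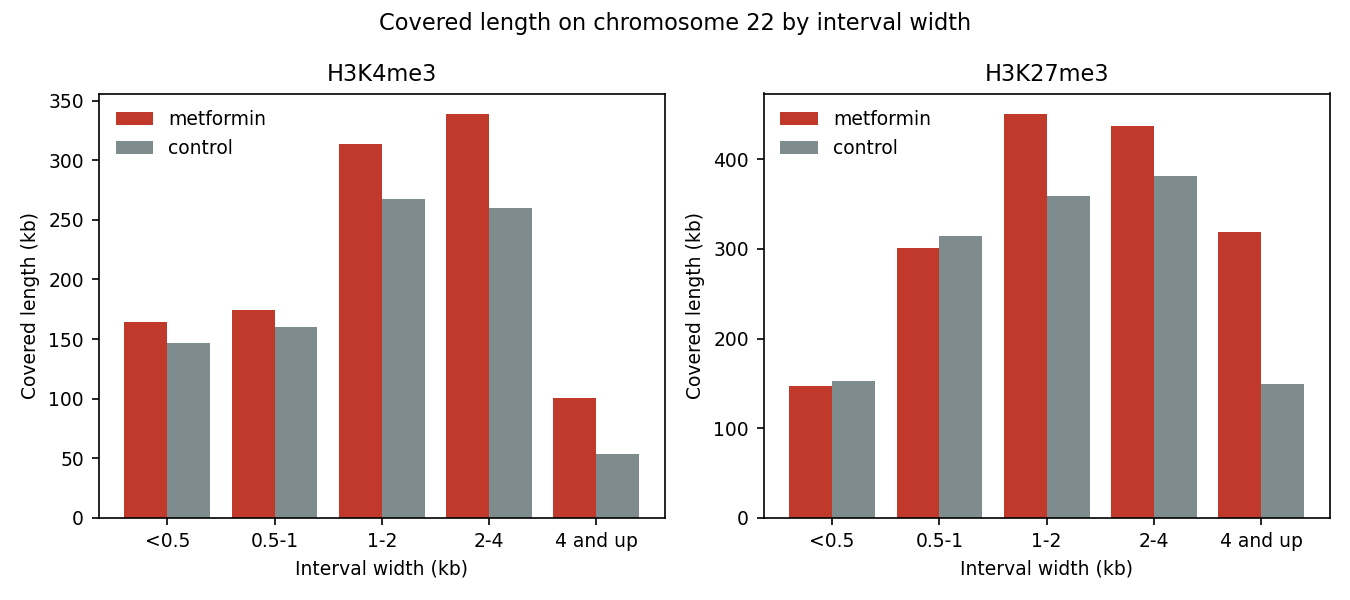
Bars give the covered length in kb on chromosome 22 by interval width for metformin (red) and control (grey), with H3K4me3 on the left and H3K27me3 on the right. The class of 4 kb and up shows the largest H3K27me3 difference, 319 kb in metformin-treated cells and 149 kb in control.

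After metformin the 5 top H3K4me3 values were found between 18 and 21 Mb. They belonged to chr22:18109179-18111511 (value 88.9), chr22:19130179-19132163 (76.8), chr22:20068043-20070690 (74.7), chr22:19416067-19419045 (71.7) and chr22:18559065-18563429 (62.3). The control list was led by chr22:29135534-29137801 (65.4), chr22:24951385-24954515 (61.0), chr22:19465363-19467203 (52.1), chr22:19129650-19132157 (52.1) and chr22:22217826-22221503 (50.4). All these sites were held in both conditions, and no H3K27me3 interval of the matching condition touched the named intervals. At the 5 metformin intervals the highest control values were 50.2, 52.1, 48.0, 39.9 and 42.7, in the order named. The positions of the leading values are therefore not read as a difference between the conditions.

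The H3K4me3 intervals found in 1 list had lower values. Among metformin-only intervals the highest values were at chr22:29998609-29999239 (14.0), chr22:39784393-39785358 (12.7), chr22:30685870-30686277 (11.5), chr22:22090435-22090945 (11.2) and chr22:42315049-42315384 (10.2). The second had its nearest control interval 9812 bp away, and the other 4 had one within 685 bp. Among control-only intervals the leading ones were chr22:39320655-39320903 (8.72), chr22:46372392-46372713 (7.78), chr22:39929109-39929294 and chr22:42370912-42371108 (6.97 each) and chr22:37916527-37916886 (6.66). They lay 109 to 1320 bp from the nearest metformin interval. A value of 5 or more was held by 67 metformin-only intervals (15.7%, against 17.5% over all chromosomes) and 12 control-only intervals (6.74%, against 10.8%).

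The H3K4me3 site that gained the most length was chr22:41776299-41779834, where 1 metformin interval of 3536 bp covered 4 control intervals with 1781 bp in all. The site chr22:24127959-24131884 had 3926 bp in metformin-treated cells and 2372 bp in 2 pieces in control, and chr22:37448057-37449892 had 1836 bp in metformin-treated cells and 292 bp in control. The other 2 of the 5 largest gains were new sites, chr22:23484507-23486110 (1604 bp) and chr22:20786320-20787805 (1486 bp). Losses were smaller. The largest was chr22:20884255-20885288, 1034 bp in control alone, followed by chr22:36875021-36878041 with 2010 bp in metformin-treated cells and 2836 bp in control. Then came chr22:18516017-18516793 (777 bp in control alone), chr22:36425298-36426777 (748 bp in metformin-treated cells, 1480 bp in control) and chr22:39097130-39098791 (926 bp in metformin-treated cells, 1623 bp in control). A change of 1 kb or more was found at 22 widened sites (4.70%, against 4.32% over all chromosomes), 4 new sites (0.94%, against 0.74%), 0 narrowed sites (1.19% over all chromosomes) and 1 lost site (0.56%, against 0.28%).

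The 5 H3K27me3 sites that gained the most were long regions that the control list held in pieces. At chr22:26636326-26647565 a single metformin region of 11240 bp covered 5 control intervals with 4262 bp in all. At chr22:26764056-26774334 a metformin region of 10279 bp covered 3 control intervals with 4551 bp. At chr22:22773639-22787137 the list lengths were 13002 bp in 1 metformin region and 7777 bp in 5 control intervals. At chr22:37022147-37039370 they were 15619 bp in 2 metformin regions and 10626 bp in 6 control intervals, and at chr22:37099677-37111673 they were 11997 bp in 1 metformin region and 7018 bp in 3 control intervals. The 15017 bp metformin region chr22:37022147-37037163 was the longest of the chromosome.

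The H3K27me3 sites that lost the most lay in the bins from 23, 26, 27 and 37 Mb. The largest loss was chr22:27369819-27373369, with 408 bp in metformin-treated cells and 3551 bp in control. At chr22:26798554-26802530 the lengths were 1118 bp in metformin-treated cells and 3977 bp in control, and at chr22:23042891-23049829 they were 4094 bp in metformin-treated cells and 6917 bp in control. The control-only sites chr22:27304050-27306882 and chr22:37611677-37614426 were 2833 and 2750 bp long. The longest control regions were chr22:22683638-22696724 (13087 bp), of which metformin regions covered 90.8%, then chr22:22443363-22453865 (10503 bp) and chr22:22803007-22811640 (8634 bp). A change of 1 kb or more was found at 142 widened sites (39.3%, against 35.5% over all chromosomes), 124 new sites (16.9%, against 15.0%), 65 narrowed sites (26.6%, against 29.8%) and 78 lost sites (12.3%, against 12.6%).

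The 3 stretches around the largest gains, chosen after their values were seen, show how dense the mark was. From 26.6 to 26.83 Mb H3K27me3 covered 51.1% of the sequence in metformin-treated cells (117 kb in 57 intervals) and 42.1% in control (96.8 kb in 63 intervals). From 22.66 to 22.82 Mb it covered 64.1% in metformin-treated cells and 51.3% in control, and from 37 to 37.13 Mb 57.8% in metformin-treated cells and 43.3% in control. The last 2 stretches held no H3K4me3 interval in either condition. In all 3 the metformin list had fewer intervals and more covered length.

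**Figure D5:**
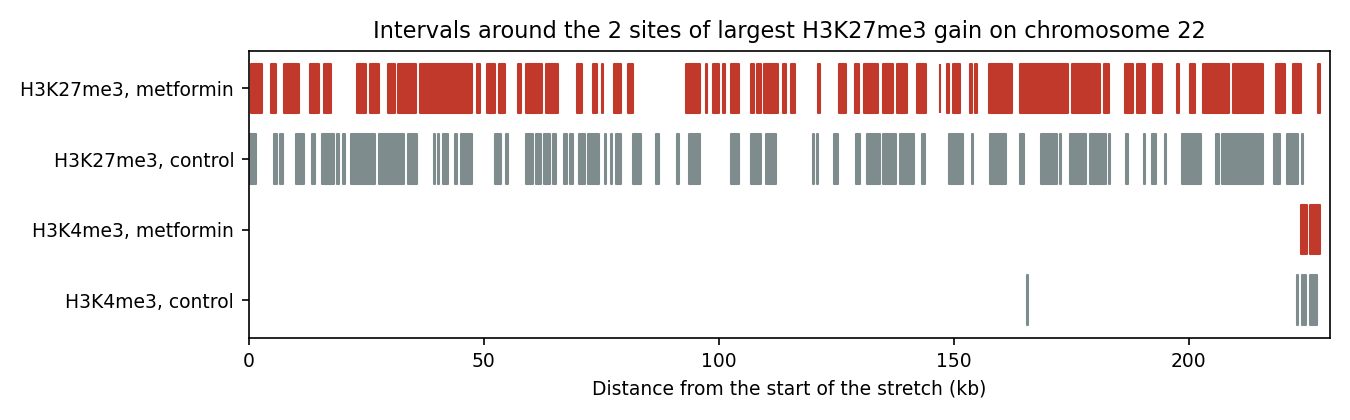
Bars are the called intervals of each list over the 230 kb from 26.6 to 26.83 Mb of chromosome 22, against the distance in kb from its start, for metformin (red) and control (grey). H3K27me3 fills 51.1% of the stretch in 57 metformin intervals and 42.1% in 63 control intervals, while H3K4me3 is held in 3 and 5 intervals.

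The H3K27me3 intervals with the highest values were short, from 172 to 778 bp in the metformin list and from 166 to 752 bp in the control list, and their values stayed under 4. After metformin they were chr22:26673293-26674070 (3.70), chr22:30866735-30867027 (3.63), chr22:40368835-40369102 (3.09), chr22:40276055-40276226 (2.99) and chr22:27419670-27419993 (2.95). In control they were chr22:20329651-20329816 (3.78), chr22:37295143-37295352 (3.50), chr22:23683308-23683482 (3.43), chr22:25691790-25692009 (3.18) and chr22:43764745-43765496 (3.08). Of these, 2 metformin and 4 control intervals had no partner in the other condition. After the 2 without a partner named above, the leading metformin-only intervals were chr22:40131029-40131207 (2.94), chr22:27778949-27779262 (2.85) and chr22:27034751-27034935 (2.804), and the fifth control-only interval was chr22:26783092-26783263 (2.68). These values lie close together, and the order is not read as one of strength.

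The marks seldom met on chromosome 22, and did so more often in the metformin lists. Of the H3K4me3 intervals, 29 of 1183 were overlapped by H3K27me3 in metformin-treated cells (2.45%, 1.65 to 3.50), where 4.55% over all chromosomes were. In control cells 11 of 1035 were (1.06%, 0.53 to 1.89), where 2.78% over all chromosomes were. Chromosome 22 ranked 21 of 23 in this share in both conditions. The sequence under both marks was 9448 bp in metformin-treated cells and 2580 bp in control. With the control H3K27me3 list in place of the metformin list, 15 metformin H3K4me3 intervals were overlapped, and with the metformin H3K27me3 list in place of the control list, 18 control intervals were.

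Most dual-mark sites were held in 1 condition. Of the 29 after metformin, 4 were dual in control cells as well. In control cells 11 others showed only H3K4me3, 2 only H3K27me3 and 12 no mark. Over all chromosomes 32.7% of metformin dual-mark intervals had both marks in control and 21.01% had neither, against 13.8% and 41.4% here. Of the 11 in control cells, 3 stayed dual after metformin, while 5 showed only H3K4me3, 3 only H3K27me3 and 0 no mark. Over all chromosomes 54.2% of control dual-mark intervals were dual after metformin, 23.01% showed only H3K4me3, 13.3% only H3K27me3 and 9.52% no mark. Dual-mark intervals had lower values than the rest, with medians of 3.64 against 5.84 after metformin and 3.92 against 5.96 in control. They lay in 13 bins after metformin and 8 in control. The bin from 26 Mb held the most in both, 5 after metformin and 3 in control, and the bin from 39 Mb held 4 after metformin and 0 in control.

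The longest dual-mark stretch after metformin was at chr22:28194866-28199026, a broad H3K4me3 domain of 4161 bp with a value of 23.5. An H3K27me3 interval of 1504 bp, chr22:28194926-28196429, lay wholly inside it, while the nearest control H3K27me3 interval was 5769 bp away and control H3K4me3 there measured 3416 bp. At chr22:17850454-17851741 both marks met in both conditions, over 887 bp in metformin-treated cells and 421 bp in control. At chr22:20285084-20285918 (762 bp dual) and chr22:25202315-25203083 (660 bp dual) control cells had neither mark on the metformin interval. Just past the end of the second, control cells had a dual-mark interval of their own, chr22:25203141-25203666. At chr22:29709726-29710786 (627 bp dual) control cells had H3K4me3 alone, with the nearest H3K27me3 86134 bp away.

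In control cells the longest dual-mark stretch was 441 bp, at chr22:17847174-17850159, an interval with a value of 17.8 that carried H3K4me3 alone after metformin. The others among the 5 longest were chr22:17850463-17851502 (421 bp), chr22:43737644-43737963 (320 bp), chr22:26566223-26566530 (308 bp) and chr22:26823974-26824303 (297 bp). Of these, chr22:17850463-17851502 and chr22:26566223-26566530 also had both marks after metformin. The last, chr22:26823974-26824303, showed only H3K4me3 on its own span after metformin, but lay within the metformin interval chr22:26823813-26825114, which was dual over 60 bp beside it. That metformin interval is one of the 4 counted as dual in control cells.

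The marks also lay nearer to each other in the metformin lists. The median distance from an H3K4me3 interval to the nearest H3K27me3 interval was 56.7 kb in metformin-treated cells and 93.9 kb in control. Over all chromosomes it was 67586 bp in metformin-treated cells and 81666 bp in control. Within 5 kb of H3K27me3 lay 151 H3K4me3 intervals in metformin-treated cells (12.8%) and 78 in control (7.54%), against 14.3% and 10.8% over all chromosomes. Longer lists bring intervals nearer to each other, and the part of list length in these distances was not tested.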

How the data were processed

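Chromatin immunoprecipitation sequencing lists of 4 libraries were used, 1 for each mark and condition. The submitters' processing notes name Trimmomatic 0.38, Bowtie, MACS2 and hg19 (GRCh37). The sources used here give neither the options nor the background library. The deposited lists hold 1 value per peak line, read from the values as −log10 q: the authors' smallest values lie just above 1.3 (H3K4me3) and 1 (H3K27me3). Lines with the same interval were joined under their highest value. On chromosome 22 the peak numbers ran without a break. Coordinates are 1-based on hg19. Overlap means at least 1 bp, shares carry exact Clopper-Pearson 95% intervals for counting error only, and bins of 1 Mb split intervals at their borders. All-chromosome values cover 1 to 22 and X. Named regions are the 5 highest values, 3 widest and 5 highest without a partner per list, the 5 largest gains and losses per mark, the 5 bins with the largest gain and 3 with the largest loss, and the 5 longest dual-mark overlaps per condition. The members and lists were chosen with earlier results of these data known. Edited control lists of known answer (1035 and 1371 intervals) were sorted correctly for 100% of sites, and overlaps equalled those of bedtools 2.31.1. Gene names and sequences were not used, since the gene tables are on GRCh38.p14. Promoter GC content came from those tables by chromosome alone. Python 3.11.15, numpy 2.4.6, pandas 2.3.3, scipy 1.17.1 and matplotlib 3.10.9 were used.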

Additional observations from a re-analysis of the deposited data

How the results depend on the processing

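No paired analysis was possible because no group had a second library, and no replicate could be left out. The H3K4me3 ratio of covered length (1.23) was 1.25 at values of 5 or more, 1.22 at equal list length, 1.25 without intervals under 500 bp and 1.22 without the bin from 50 Mb. The H3K27me3 ratio (1.22) was 1.29 at values of 1.5 or more, 1.2 with intervals within 1 kb merged, 1.25 without intervals under 500 bp, 1.204 without the bin from 37 Mb and 1.23 without bins below 18 Mb. Under the settings of value, list length, merging and short intervals chromosome 22 had the highest ratio of both marks. The share of metformin H3K4me3 intervals without a partner (36.0%) was 48.3% when a partner had to cover at least 50% of it, 13.9% when a control interval within 1 kb counted, 24.3% at values of 5 or more and 22.9% with merging. For H3K27me3 (51.4%) this share was 73.9% with 50% covered, 31.7% within 1 kb and 61.0% at values of 1.5 or more. New minus lost sites made 12.7% of the H3K4me3 gain with merging and 42.3% at values of 5 or more, and 29.0% of the H3K27me3 gain with merging and 45.4% at values of 1.5 or more. Merging by its construction removes new pieces beside older ones. Dual-mark shares were 1.44% in metformin-treated cells with at least 200 bp, 1.18% in metformin-treated cells and 0.48% in control with H3K27me3 values of 1.5 or more, 1.27% for metformin with the control H3K27me3 list, and 4.16% in metformin-treated cells and 2.01% in control with merging. H3K27me3 regions were 1.32 times as many after metformin from 2 kb, and 1.32 times with merging.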

Other observations

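None of the 4 lists had an interval of chromosome 22 in chr22:32967334-35229610, a stretch of 2.26 Mb. Among such stretches between intervals over all chromosomes it ranked 71 by length. Sequence before the first interval of a chromosome was not counted, and on chromosome 22 that interval starts at base 16190689. The next longest between intervals on chromosome 22 was 0.891 Mb, chr22:16190949-17081532. The chromosome's peak numbers of all 4 lists run on across the stretch without a break.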
